A study of Homo sapiens with 6 samples.

Results

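Complex I, the NADH:ubiquinone oxidoreductase of mitochondria, takes electrons from NADH through an arm that reaches into the matrix, passes them to ubiquinone, and pumps protons through an arm that lies in the inner membrane. Its core subunits carry the flavin, the iron-sulfur clusters and the proton channels, and its many accessory subunits surround and stabilise that core. Assembly factors build the enzyme in stages from modules (the N module, which oxidises NADH, the Q module, which reduces ubiquinone, and the proximal and distal parts of the membrane arm) and are absent from the finished complex. The genes examined here are the nuclear genes whose symbols begin with NDUFA, NDUFB, NDUFC, NDUFS, NDUFV or NDUFAF and which are annotated as protein coding. In the count table of K562 cells, 48 of 61661 rows met that rule, of which 37 were subunits of complex I and 8 were NDUFAF assembly factors. The other rows were NDUFA4 and its homologue NDUFA4L2, whose products are now assigned to cytochrome c oxidase (complex IV), and the readthrough gene NDUFC2-KCTD14, which had 0 reads in all 6 libraries. The remaining 47 members passed the filter on low counts, among 17686 genes tested.

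K562 is an established erythroleukemia line derived from a chronic myeloid leukemia that had reached blast crisis. RNA-seq was made from cells labelled shCTR, shMETTL3 and shMETTL14, with 2 libraries of each, where sh marks a short hairpin RNA that lowers its target. METTL3 and METTL14 form the enzyme that writes N6-methyladenosine (m6A) into mRNA. The methods describe lentiviral vectors with a U6 promoter and GFP, puromycin selection and a nonsense hairpin as the control for METTL3; how the shMETTL14 cells were made is not given in the sources used here. The shCTR cells are labelled wild type in genotype, no label gives more than 1 hairpin per target, and nothing says that the 2 libraries of a group came from separate cultures, so p-values measure only the spread between these libraries, which may be technical. In bulk RNA, fewer cells of a kind and less RNA per cell cannot be told apart.

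Library totals ran from 19292574 to 20115304 reads. Levels are given as CPM (reads of a gene scaled to the size of its library) with edgeR's TMM factors, which ran from 0.980 to 1.02. METTL3 measured 90.5 and 90.3 CPM in shCTR, 52.5 and 46.7 in shMETTL3 and 88.1 and 76.4 in shMETTL14 cells. METTL14 measured 33.2 and 34.2, 38.3 and 35.4, and 19.1 and 20.6 CPM in those groups. Each targeted gene was called lower in its own knockdown by edgeR's quasi-likelihood test (log2 fold change -0.87, adjusted p = 3.44e-07 for METTL3, and -0.76, adjusted p = 1.40e-05 for METTL14). A gene is called where the Benjamini-Hochberg adjusted p over all genes tested is under 0.05.

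The 11 listed erythroid genes of K562 cells all had reads, but at very different levels. GATA1 was between 252 and 301 CPM, while in shCTR cells HBG1 averaged 0.793, HBG2 6.76 and HBZ 5.68 CPM. The 11 genes summed to 1277 and 1397 CPM in shCTR, 1540 and 1684 in shMETTL3 and 1463 and 1466 in shMETTL14 cells. HBE1 alone averaged 209, 407 and 277 CPM in those groups. Of these 11, 4 were called higher and 1 lower in each knockdown. A monocytic list that would mark MV4-11 cells (8 genes) summed to 64.8 and 71.5, 31.9 and 29.3, and 81.1 and 87.7 CPM. FLT3 and HOXA9 were at 0 in every library, 3 of the list's genes (MEIS1, SPI1 and LYZ) were called lower in shMETTL3 cells, and LYZ was called higher in shMETTL14 cells. Lists for mesothelial, lymphoid and embryonic kidney packaging cells (4, 5 and 3 genes) summed to at most 0.763, 9.47 and 4.17 CPM. CD3D was called higher in shMETTL3 cells, and LIN28A was called higher in both knockdowns. The part of these cell state and marker differences in the results below was not tested.

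In shMETTL3 cells, 10 complex I genes were lower than in shCTR cells and 0 were higher, and all 10 encode accessory subunits. Among all genes tested, 7.73% were called lower and 8.73% higher in this comparison, while 27.0% of the 37 subunits were called lower. The subunits' median log2 fold change was -0.13, against 0.00 for all genes, and 33 of the 37 had a negative value. At an unadjusted p under 0.05, 17 members were lower and 0 higher, against 14.2% and 15.8% of all genes. DESeq2 called 7 lower and 0 higher, against 5.44% and 4.9% of all genes. Library size alone as the scaling gave 858 lower and 2158 higher calls over all genes, against 1368 and 1544 with TMM, and left 7 members lower and a subunit median of -0.08. The calls also rested on both shMETTL3 libraries. Without shMETTL3 replicate 1 the members still called were NDUFA1, NDUFA5, NDUFA10 and NDUFB6, and without shMETTL3 replicate 2 only NDUFA5. Fewer of all genes tested were called lower in these fits too. The subunit median was -0.12 in both.

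The proximal membrane arm held the gene with the largest called change. NDUFA10, an accessory subunit on the matrix face of that arm that resembles nucleoside kinases, measured 144 and 147 CPM in shCTR, 120 and 107 in shMETTL3 and 135 and 141 in shMETTL14 cells. The shMETTL3 libraries lay below all other libraries. The log2 fold change against shCTR was -0.36 (SE 0.0670), a fall of 22.1% in the fitted ratio (edgeR adjusted p = 0.00101). It was called in each of the 8 alternative fits with both libraries of each compared group.

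NDUFA1, a small subunit with a membrane-spanning helix, measured 119 and 120 CPM in shCTR cells, 103 and 96.3 in shMETTL3 cells and for shMETTL14 112 and 121. NDUFS5, which faces the intermembrane space, measured 284 and 305, 248 and 253, and 288 and 283 CPM in the same groups. Both genes had their shMETTL3 libraries below the other 4, with log2 fold changes of -0.26 (SE 0.0662, edgeR adjusted p = 0.00970) and -0.23 (SE 0.0594, edgeR adjusted p = 0.0107). The other 6 members of the proximal arm were not called. They ran from -0.12 (SE 0.149) for NDUFC2 to 0.23 (SE 0.246) for NDUFA13, with NDUFA3, NDUFA8, NDUFA11 and NDUFC1 between -0.03 and -0.01.

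The distal membrane arm, counted here with 12 genes, held 5 of the 10 calls, and its median log2 fold change was -0.20. NDUFB6 measured 69.6 and 75.8 CPM in shCTR cells, 61.1 and 56.3 in shMETTL3 cells and for shMETTL14 66.6 and 67.7. NDUFAB1, the mitochondrial acyl carrier protein that also serves fatty acid synthesis and iron-sulfur cluster assembly, measured 109 and 111, 90.4 and 94.9, and 93.0 and 98.7 CPM. For both genes each knockdown library was below both shCTR libraries, and for NDUFAB1 the knockdown groups overlapped. Against shCTR, the shMETTL3 log2 fold changes were -0.31 (SE 0.0711, edgeR adjusted p = 0.00543) and -0.25 (SE 0.0649, edgeR adjusted p = 0.0118).

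NDUFB2, NDUFB10 and NDUFB11 were called by narrower margins. NDUFB2 measured 41.0 and 38.9 CPM in shCTR and 32.4 and 35.1 in shMETTL3 cells (log2 fold change -0.24, SE 0.0791, edgeR adjusted p = 0.0413). NDUFB10, a subunit on the intermembrane-space side, measured 106 and 116, and 93.5 and 98.4 CPM (-0.21, SE 0.0682, edgeR adjusted p = 0.0380). NDUFB11 measured 103 and 111, and 90.7 and 94.1 CPM (-0.21, SE 0.0672, edgeR adjusted p = 0.0333). In all 3 the groups did not overlap, but NDUFB2 kept its call in 2 of the 8 alternative fits and NDUFB10 and NDUFB11 in 4 each. Of the 7 uncalled distal genes, NDUFB8 had the lowest value (-0.42, SE 0.254) from no more than 50 reads in any library, and NDUFB7 the highest (0.07, SE 0.0698).

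**Figure D1:**
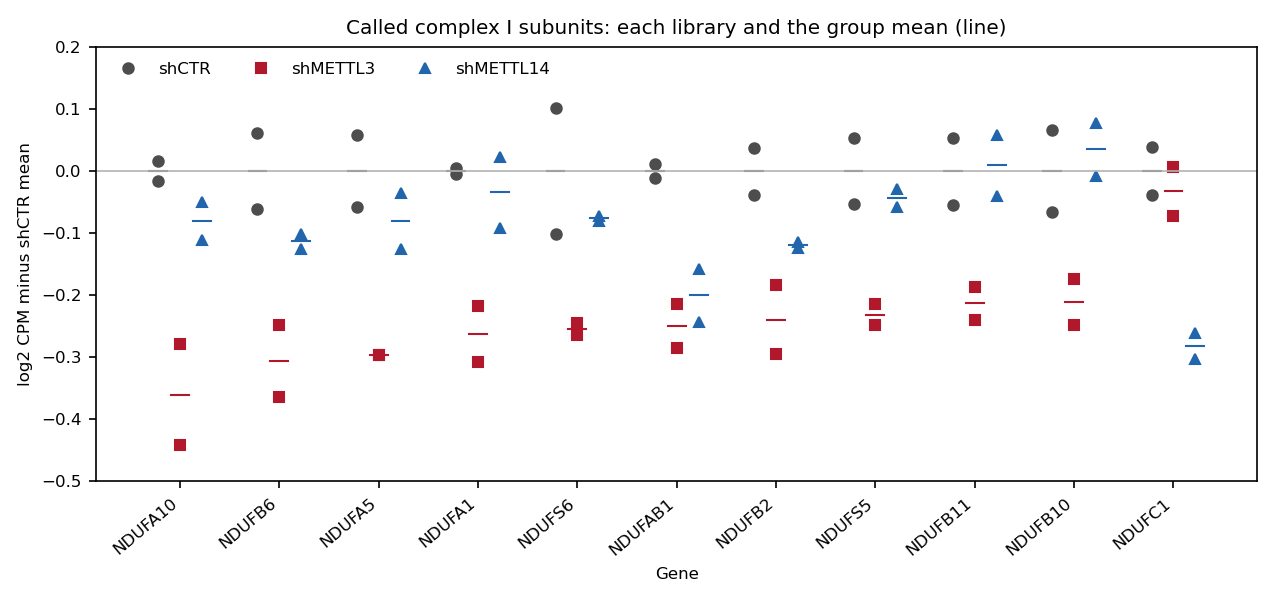
Levels of the 11 subunits called against shCTR in either knockdown, as log2(CPM + 0.5) minus the mean of the shCTR libraries (vertical axis), for each library of shCTR (circles), shMETTL3 (squares) and shMETTL14 (triangles), with a line at each group's mean. The shMETTL3 squares lie below the shCTR circles for the first 10 genes, and for NDUFC1 the shMETTL14 triangles lie below both other groups.

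The matrix arm held the remaining 2 calls. NDUFA5, an accessory subunit of the Q module, measured 271 and 249.5 CPM in shCTR cells, 211 and 211 in shMETTL3 cells and for shMETTL14 238 and 254. NDUFS6, a zinc-binding accessory subunit of the N module, measured 166 and 191, 150 and 148, and 169 and 168 CPM. The shMETTL3 libraries were the lowest for both genes, with log2 fold changes of -0.30 (SE 0.0620, edgeR adjusted p = 0.00244) and -0.26 (SE 0.0678, edgeR adjusted p = 0.0126). With a correction for GC content and transcript length NDUFA5 had -0.16, NDUFB6 -0.19, NDUFAB1 -0.16 and NDUFS5 -0.15, all still called, and without shCTR replicate 2 NDUFS6 had -0.16 and was not called. By module, 1 of 10 N module genes, 1 of 6 Q module genes, 3 of 9 proximal and 5 of 12 distal membrane arm genes were called lower. As shares these were 10%, 16.7%, 33.3% and 41.7%, against 7.73% of all genes tested. These shares were not tested against each other.

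Promoter windows, from 250 bases before to 50 bases after a start, were listed by RefSeq (GRCh38.p14) for 32 of the 37 subunits, with 39 windows in all. Motifs of 4 factors known from nuclear mitochondrial genes were searched on both strands. GCATGCGC, of NRF1, was in 15.4% of subunit windows and in 3.05% of all 35116 windows, and AAGATGGCG, of YY1, in 15.4% and 1.75%. CCGGAAG, of the ETS family, was in 12.8% and 10.3%, and CAAGGTCA, of the estrogen-related receptors, in 5.13% and 1.28%. The NRF1 windows were those of NDUFA5, NDUFA6, NDUFA8, NDUFB4, NDUFS6 and NDUFS7, and the YY1 windows those of NDUFA6, NDUFA7, NDUFA9, NDUFB8, NDUFS4 and NDUFS7. Of the 11 windows of genes called lower in shMETTL3 cells, 0 held the YY1 letters, 2 the NRF1, 1 the ETS and 2 the CAAGGTCA letters. These counts are small and were not tested. Both windows with CAAGGTCA were overlapping windows of 1 gene, NDUFA5. A match is a description of letters and not a binding site.

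The windows of the 4 genes with the largest called change in shMETTL3 cells are shown because these genes fell together. They are given 5′ to 3′ on the gene's strand, with motif letters in capitals. NDUFA10 (10 exons in the transcript used) lies on the minus strand at chr2:239892450-240025402 and its window at chr2:240025293-240025592. NDUFB6 (4 exons) lies on the minus strand at chr9:32552999-32573184, with its window at chr9:32573110-32573409. NDUFA5 (5 exons) lies on the minus strand at chr7:123536997-123558255, and of its 3 windows the 1 that holds the start of the coding sequence is shown, at chr7:123557769-123558068. NDUFA1 (3 exons) lies on the plus strand at chrX:119871487-119876662, with its window at chrX:119871582-119871881. The windows of NDUFA10 and NDUFB6 held none of the 4 motifs. That of NDUFA5 held the NRF1 letters in reverse complement with the first base at -158 from the start, and that of NDUFA1 held the ETS letters in reverse complement at -47.
NDUFA10: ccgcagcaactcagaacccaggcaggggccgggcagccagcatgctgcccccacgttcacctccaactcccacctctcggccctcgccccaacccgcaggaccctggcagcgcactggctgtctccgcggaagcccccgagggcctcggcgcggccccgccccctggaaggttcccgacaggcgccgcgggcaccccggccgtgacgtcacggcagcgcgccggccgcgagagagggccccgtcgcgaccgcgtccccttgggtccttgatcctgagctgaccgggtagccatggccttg
NDUFB6: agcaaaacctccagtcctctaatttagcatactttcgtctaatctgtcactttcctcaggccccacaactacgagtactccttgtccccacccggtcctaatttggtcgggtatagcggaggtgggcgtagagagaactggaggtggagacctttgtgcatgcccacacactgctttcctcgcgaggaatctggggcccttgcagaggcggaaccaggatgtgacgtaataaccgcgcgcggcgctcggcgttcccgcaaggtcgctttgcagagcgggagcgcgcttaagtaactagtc
NDUFA5: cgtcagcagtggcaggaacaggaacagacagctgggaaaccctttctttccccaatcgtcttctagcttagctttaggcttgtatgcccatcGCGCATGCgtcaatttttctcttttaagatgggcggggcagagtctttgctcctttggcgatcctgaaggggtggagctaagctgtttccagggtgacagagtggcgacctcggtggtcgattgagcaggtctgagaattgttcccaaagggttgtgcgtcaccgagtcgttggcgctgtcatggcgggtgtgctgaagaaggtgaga
NDUFA1: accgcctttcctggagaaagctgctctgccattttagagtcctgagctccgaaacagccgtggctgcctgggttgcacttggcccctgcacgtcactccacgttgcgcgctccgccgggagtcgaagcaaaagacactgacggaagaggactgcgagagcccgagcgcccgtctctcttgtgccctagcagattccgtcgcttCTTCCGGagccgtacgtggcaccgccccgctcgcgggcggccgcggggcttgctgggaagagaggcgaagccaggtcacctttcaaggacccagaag

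None of the 7 nuclear core subunits was called in shMETTL3 cells by edgeR or DESeq2, although all 7 had negative values and 2 had an unadjusted p under 0.05. Their median was -0.08, against -0.15 for the 30 accessory subunits, and the difference was not tested. Over all genes tested, edgeR called 7.73% lower and DESeq2 5.44%, and 14.2% were lower at an unadjusted p under 0.05. Against these shares, 0 calls among 7 genes do not set the core subunits apart. NDUFV1, which binds NADH and the flavin, measured 311 and 333 CPM in shCTR and 295 and 296 in shMETTL3 cells (-0.12, SE 0.0588, edgeR adjusted p = 0.165). NDUFS3 of the Q module measured 79.7 and 86.2, and 73.3 and 73.9 CPM (-0.17, SE 0.0668, edgeR adjusted p = 0.0830). For both genes the groups did not overlap. Once a smooth dependence on GC content and transcript length was taken out of every library, NDUFV1 (-0.22, edgeR adjusted p = 0.00152) and NDUFS3 (-0.16, edgeR adjusted p = 0.0408) were called lower and NDUFA6 was called higher (0.19, edgeR adjusted p = 0.0250). NDUFS3 was also called without shCTR replicate 1 (-0.23) and NDUFS1 without shCTR replicate 2 (-0.19).

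The other core subunits carried smaller or less precise values. NDUFS7, an iron-sulfur subunit of the Q module, had -0.08 (SE 0.179). NDUFS1, the largest iron-sulfur subunit, had -0.06 (SE 0.0773), NDUFV2 -0.06 (SE 0.195) and NDUFS8 -0.01 (SE 0.0822). NDUFS7 and NDUFV2 were read at under 150 reads per library, and their errors were the widest of the 7.

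No NDUFAF assembly factor was called in shMETTL3 cells by edgeR or DESeq2, and the 8 had a median of -0.04 with 4 negative values. Over all genes tested, edgeR called 7.73% lower and 8.73% higher, and 14.2% were lower at an unadjusted p under 0.05. Against these shares, 0 calls among 8 genes do not set the assembly factors apart. NDUFAF6, which acts early in assembly, measured 23.3 and 25.4 CPM in shCTR and 19.2 and 21.4 in shMETTL3 cells and was the 1 factor with an unadjusted p under 0.05 (-0.26, SE 0.0965, edgeR adjusted p = 0.0672). NDUFAF5, which hydroxylates an arginine of NDUFS7, measured 17.6 and 14.6, and 13.7 and 13.7 CPM (-0.23, SE 0.117, edgeR adjusted p = 0.189). In both the groups did not overlap, and NDUFAF5 was called without shCTR replicate 2 (-0.36). NDUFAF2, a chaperone of late assembly, had -0.14 (SE 0.0706), and NDUFAF7, a methyltransferase, -0.12 (SE 0.0868). NDUFAF1, of the membrane arm assembly complex, had 0.04 (SE 0.101). NDUFAF3 and NDUFAF4, which act together on the Q module, had 0.05 (SE 0.111) and 0.04 (SE 0.0958), and NDUFAF8, the partner of NDUFAF5, had 0.09 (SE 0.0823). NDUFA4 and NDUFA4L2 stood at -0.01 (SE 0.0607) and 0.00 (SE 0.141).

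Counted without a model, 24 of the 48 members had both shMETTL3 libraries below both shCTR libraries and 3 had them above. Over all genes tested, 27.3% had both shMETTL3 libraries below and 28.7% above. The 37 subunits summed to 3142 and 3265 CPM in shCTR, 2852 and 2863 in shMETTL3 and 3085 and 3128 in shMETTL14 cells. Relative to the shCTR mean, the subunits' median log2 difference was -0.12 in both shMETTL3 libraries. It was -0.05 and -0.03 for shMETTL14, while the shCTR libraries themselves stood at -0.02 and 0.02. The 2 shCTR values mirror each other because their own mean was subtracted.

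**Figure D2:**
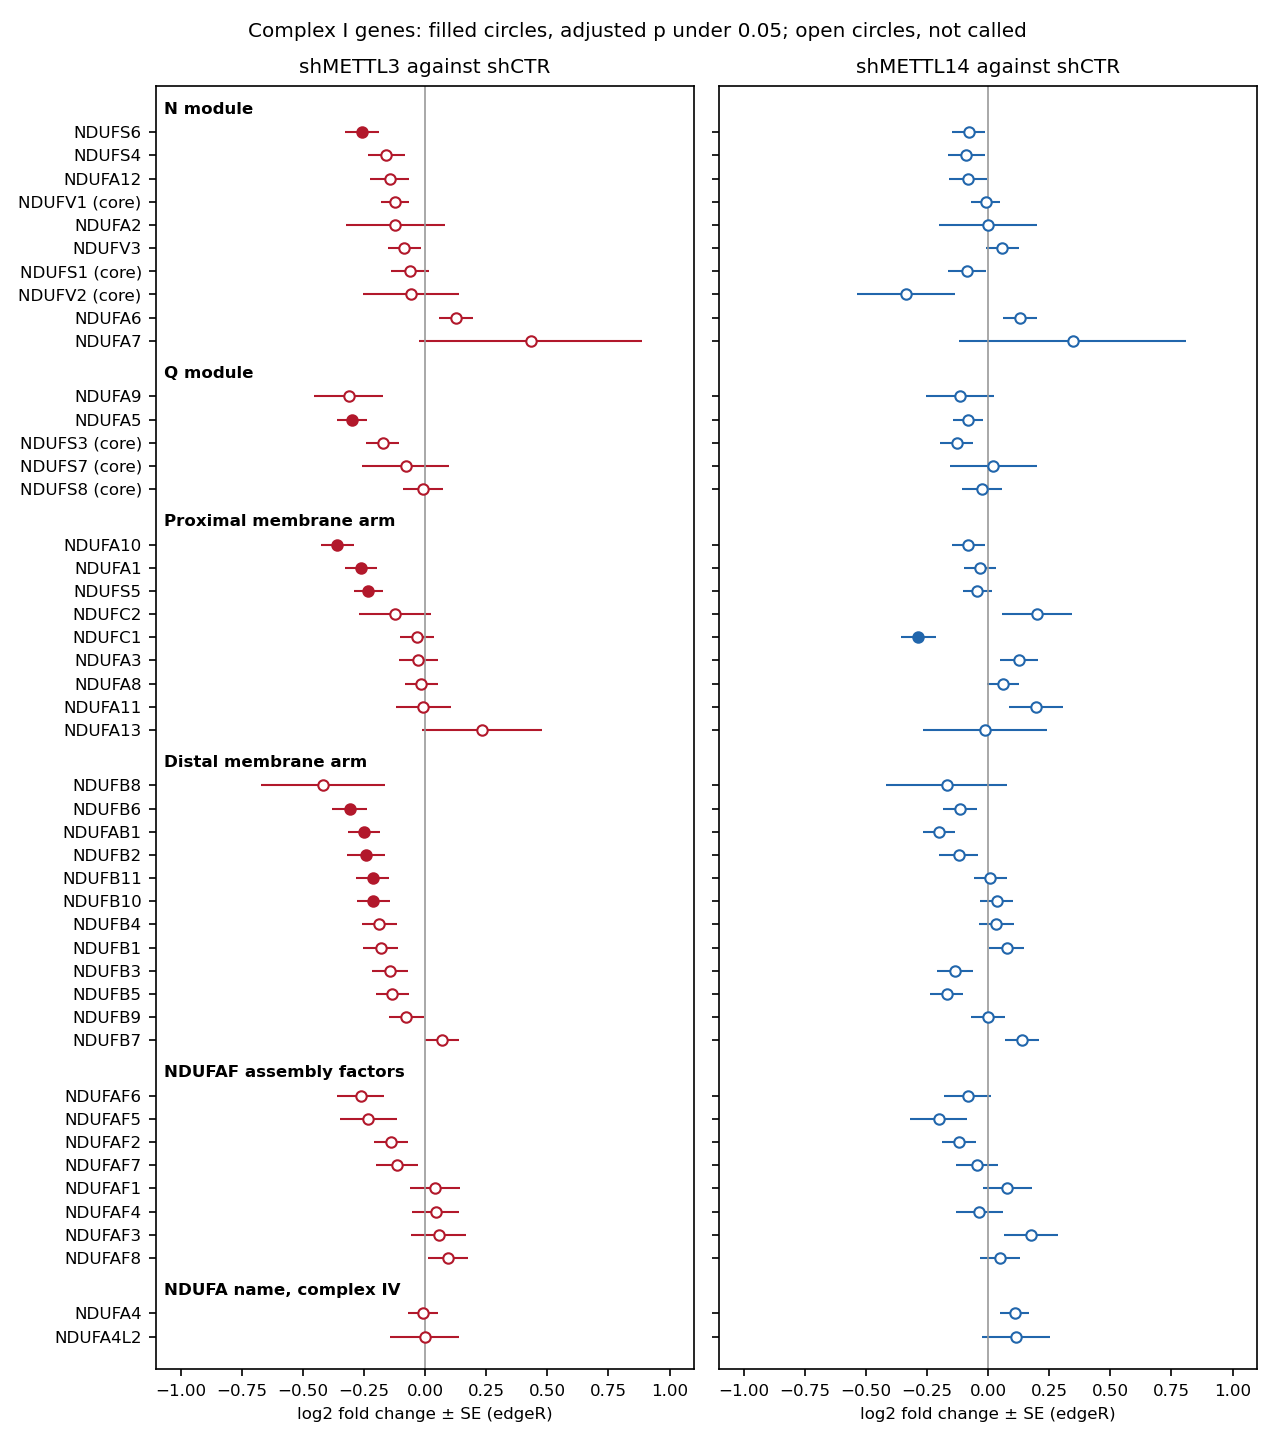
Log2 fold change of 46 of the 47 tested members (horizontal axis) with its standard error (bars), by module, for shMETTL3 against shCTR (left) and shMETTL14 against shCTR (right); filled circles are called and open circles are not. The 10 filled circles on the left lie between -0.36 and -0.21, and NDUFC1 is the 1 filled circle on the right.

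In shMETTL14 cells, 1 member was lower than in shCTR cells and 0 were higher by edgeR and by DESeq2. Over all genes tested, edgeR called 3.26% lower and 3.43% higher, and DESeq2 2.14% and 1.99%. The member was NDUFC1, a small subunit of the proximal membrane arm. NDUFC1 measured 58.5 and 55.4 CPM in shCTR, 54.1 and 57.2 in shMETTL3 and 47.4 and 46.1 in shMETTL14 cells. The shMETTL14 libraries lay below the other 4, and the shCTR and shMETTL3 libraries overlapped. Its log2 fold change was -0.29 (SE 0.0712, edgeR adjusted p = 0.0189) in shMETTL14 and -0.03 (SE 0.0702, edgeR adjusted p = 0.797) in shMETTL3 cells. It was called in each of the 8 alternative fits with both libraries of each compared group, and in 1 of the 4 fits that left out a library.

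The subunits' median in shMETTL14 cells was -0.03, with 24 of 37 negative, and the median was positive (0.01) without shCTR replicate 2. At an unadjusted p under 0.05, 4 of the 47 members were lower and 0 higher, against 9.97% and 10.7% of all genes. None of the 7 core subunits was called by edgeR or DESeq2, and 1 had an unadjusted p under 0.05. NDUFS3 (-0.13, SE 0.0667, edgeR adjusted p = 0.285) had non-overlapping groups, and NDUFV1 stood at -0.01 (SE 0.0588). Without shCTR replicate 2, NDUFS1 was called (-0.22). The NDUFAF factors had 0 calls and 0 values with an unadjusted p under 0.05, with values from -0.20 for NDUFAF5 to 0.17 for NDUFAF3. Over all genes tested, edgeR called 3.26% lower and 3.43% higher, so 0 calls in groups this small do not set them apart. Both shMETTL14 libraries lay below both shCTR libraries for 13 members and above them for 8, against 23.9% and 25.0% of all genes tested. Library size alone as the scaling gave 443 lower and 743 higher calls over all genes, against 577 and 607 with TMM, and a subunit median of -0.01. NDUFC1 was not called when shCTR replicate 1, shMETTL14 replicate 1 or shMETTL14 replicate 2 was left out.

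The knockdowns were compared directly, since a call in one and none in the other does not show a difference. Against shMETTL14 cells, 7 members were lower and 1 higher in shMETTL3 cells, with 5.49% of all genes called lower and 6.65% higher. The subunits' median was -0.11, and 26 members had both shMETTL3 libraries below both shMETTL14 libraries and 3 had them above, against 28.3% and 28.4% of all genes. NDUFA10 differed by -0.28 (SE 0.0670, edgeR adjusted p = 0.00828), NDUFB10 by -0.25 (SE 0.0681, edgeR adjusted p = 0.0206) and NDUFA1 by -0.23 (SE 0.0663, edgeR adjusted p = 0.0265). NDUFB11, NDUFA5 and NDUFS5 differed by -0.22, -0.22 and -0.19. NDUFB1, a small distal arm subunit, measured 49.0 and 50.2 CPM in shCTR, 43.7 and 43.7 in shMETTL3 and 54.0 and 50.5 in shMETTL14 cells. It differed between the knockdowns by -0.26 (SE 0.0719, edgeR adjusted p = 0.0216) without being called against shCTR in either. NDUFC1 was the gene that was higher in shMETTL3 cells, by 0.25 (SE 0.0712, edgeR adjusted p = 0.0237). DESeq2 called 5 members lower and 0 higher (3.55% and 3.79% of all genes), without NDUFB1, NDUFB11 and NDUFC1. The NDUFS5 difference kept its call in 4 of the 8 alternative fits with both libraries of each compared group. No member was called without shMETTL3 replicate 2, shMETTL14 replicate 1 or shMETTL14 replicate 2, and only NDUFA10 without shMETTL3 replicate 1. Fewer of all genes tested were called in each of these fits too.

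The other respiratory complexes were counted in the same way. In shMETTL3 cells, 17 of 41 tested genes of complexes II to V were called lower and 0 higher, with a median of -0.17. Over all genes tested the shares were 7.73% and 8.73%. DESeq2 called 15 of the 41 lower and 0 higher, against 5.44% and 4.9% of all genes. At an unadjusted p under 0.05, 0 of the 41 were higher, against 15.8% of all genes. Complex V, the ATP synthase, had 10 of 18 called lower with a median of -0.21. Complex IV, counted by COX symbols alone, had 4 of 11, complex III 2 of 8 and complex II 1 of 4. NDUFA4 and NDUFA4L2 are left out of these counts and were not called (-0.008 and -0.002). Mitochondrial ribosomal proteins had 14 called lower and 1 higher of 77 by edgeR, 6 and 1 by DESeq2, and a median of -0.05. In shMETTL14 cells the corresponding medians were -0.05 for complexes II to V (2 of 41 lower) and -0.03 for the ribosomal proteins (4 lower and 1 higher of 77). The shares called lower were 4.88% and 5.19%, near the 3.26% of all genes. The 2 knockdowns share the shCTR libraries, so a value of the shCTR libraries moves both comparisons.

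**Figure D3:**
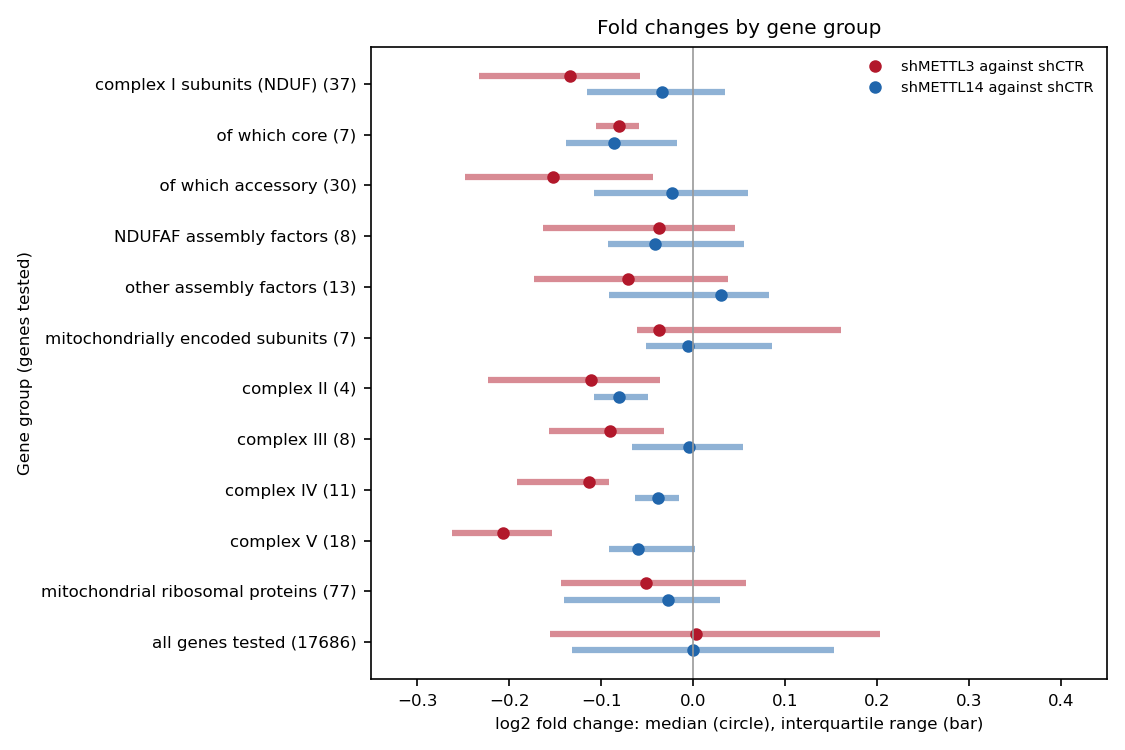
Median (circle) and interquartile range (bar) of the log2 fold change against shCTR (horizontal axis) by gene group, with the number of genes tested in brackets, for shMETTL3 and shMETTL14. The complex I subunits stand at -0.13 and -0.03, complex V at -0.21 and -0.06, and all genes at 0.00 in both.

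Of 13 assembly factors outside the NDUFAF family, 3 were called lower and 1 higher in shMETTL3 cells. Over all genes tested, 7.73% were called lower and 8.73% higher. TMEM126B, of the complex that assembles the membrane arm with NDUFAF1, measured 119 and 121 CPM in shCTR and 99.6 and 99.8 in shMETTL3 cells (-0.26, SE 0.0627, edgeR adjusted p = 0.00689). TMEM126A had -0.27 (SE 0.0904, edgeR adjusted p = 0.0426). AIFM1, which supports import of intermembrane-space subunits, had -0.21 (edgeR adjusted p = 0.0225) and was also lower in shMETTL14 cells (-0.26, edgeR adjusted p = 0.0165). TMEM70, which serves assembly of complexes I and V, was the factor that was higher, at 34.4 and 37.6 CPM in shCTR and 43.2 and 47.1 in shMETTL3 cells (0.33, edgeR adjusted p = 0.00771). Each of the 4 had groups that did not overlap. With the GC and length dependence taken out, TMEM126B (-0.09) and TMEM126A (-0.12) were not called, and TMEM126A kept its call in 2 of the 8 alternative fits. All 4 lost their call in shMETTL3 cells without shMETTL3 replicate 2.

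The 7 subunits encoded by mitochondrial DNA form the proton-pumping core, and they did not move together. MT-ND1 was lower in shMETTL3 cells (-0.19, edgeR adjusted p = 0.0320) and MT-ND6 higher (0.34, edgeR adjusted p = 0.0151). With the GC and length dependence taken out or with library size alone MT-ND1 was not called (-0.11 and -0.14), although the correction with the replicate block kept its call, and without shCTR replicate 2 neither gene was called (-0.13 and 0.22). MT-ND6 measured 29.9 and 24.9 CPM in shCTR, 36.4 and 33.2 in shMETTL3 and 31.8 and 32.4 in shMETTL14 cells. The other 5 lay between -0.08 and 0.23 and were not called, although MT-ND4 and MT-ND5 were called higher with the GC and length dependence taken out. In shMETTL14 cells 0 of the 7 were called by edgeR or DESeq2, and 1 had an unadjusted p under 0.05. Mitochondrial mRNAs are read from both strands, and MT-ND6 lies opposite to the other genes. Whether the counting used strand is not given in the sources used here, and the libraries were enriched with oligo(dT), so these values are uncertain.

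Of the regulators that act on nuclear genes of mitochondria, 1 of 10 tested was called in shMETTL3 cells. The shares of all genes were 7.73% called lower and 8.73% higher. GABPB1, a subunit of an ETS-family factor, was lower (46.3 and 52.5 CPM in shCTR, 41.4 and 41.7 in shMETTL3, log2 fold change -0.25, edgeR adjusted p = 0.0304). The call was kept in 2 of the 8 alternative fits and not by DESeq2, which called 0 regulators, and the value without shCTR replicate 2 was -0.16 and not called. NRF1 had -0.16 (edgeR adjusted p = 0.318), and ESRRA and TFAM 0.01 and -0.05. PPARGC1A, which encodes the coactivator PGC-1α, was between 0.102 and 0.349 CPM in the 6 libraries and did not pass the filter on low counts. At this depth no change of PPARGC1A could be detected. In shMETTL14 cells 0 of the 10 were called by edgeR or DESeq2, and 1 had an unadjusted p under 0.05. Of all genes tested there, edgeR called 3.26% lower and 3.43% higher, and 9.97% and 10.7% at an unadjusted p under 0.05.

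Levels between genes are compared per kb of transcript, using 1 transcript per gene. NDUFS5 had the highest mean over the 6 libraries (505 ± 40.2 CPM per kb, SD, n = 6 libraries of 3 groups), followed by NDUFV1 (196 ± 9.70), NDUFB9 (172 ± 9.52), NDUFB4 (164 ± 14.1) and NDUFS6 (153 ± 14.4). The gap from NDUFS5 to NDUFV1 exceeded the spread of both, while the gaps from NDUFB9 to NDUFB4 and from NDUFB4 to NDUFS6 were smaller than the spread of either gene. The order depended on the length used. Per kb of coding sequence NDUFS5, NDUFA5 and NDUFA4 came first and NDUFV1 was at rank 10. The lowest tested members per kb of transcript were NDUFA9 (1.05 ± 0.124 CPM per kb), NDUFA7 (1.09 ± 0.271), NDUFA13 (2.33 ± 0.313), NDUFAF5 (2.64 ± 0.283) and NDUFC2 (3.01 ± 0.346). Per kb of coding sequence NDUFA7, NDUFB8, NDUFV2, NDUFA13 and NDUFA9 were the lowest, and NDUFAF5 and NDUFC2 were at ranks 41 and 38.

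The lowest subunit levels went with the annotation of neighbouring genes. In GENCODE release 29, 8 subunits share exon bases with another gene on their own strand. These are NDUFV2 (82.9% of its exon bases), NDUFA7 (75.9%), NDUFB8 (71.7%), NDUFA11 (67.0%), NDUFA13 (44.1%), NDUFC2 (17.1%), NDUFA9 (11.8%) and NDUFS1 (3.31%). Their median level was 3.14 CPM per kb, against 80.9 for the 29 subunits without such sharing. Of the 9 subunits with a mean under 300 reads, 7 share exons in this way, and the other 2, NDUFA2 and NDUFS7, overlap genes on the opposite strand only.

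The core subunit NDUFV2 had 57 to 78 reads per library and NDUFA7 had 10 to 17. The genes that share their exons were themselves at or near 0. The gene over NDUFV2 had 0 reads in every library, as had those over NDUFB8 and NDUFA11, and the 1 over NDUFA7 had at most 1. The readthrough gene over NDUFA13 had 12 to 26 reads. Processed pseudogenes were also read, with 71 to 104 reads for NDUFV2P1 and 86 to 122 for NDUFA5P11. The part of shared exons in these levels was not tested, and how reads that match more than 1 gene were treated is not given in the sources used here, so the levels of these 8 genes are uncertain. None of the 8 was called in any comparison by edgeR or DESeq2 with all libraries, and at an unadjusted p under 0.05 there was 1 in shMETTL3 against shCTR, 0 in shMETTL14 against shCTR and 1 between the knockdowns. Over all genes tested, edgeR called from 3.26% to 8.73% in a direction, so 0 calls among 8 genes do not set them apart. At an unadjusted p under 0.05, 14.2% of all genes were lower in shMETTL3 against shCTR and 11.9% in shMETTL3 against shMETTL14. Without these 8 genes, 10 of 29 subunits were called lower in shMETTL3 cells, against 7.73% of all genes tested, and the median was -0.15.

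**Figure D4:**
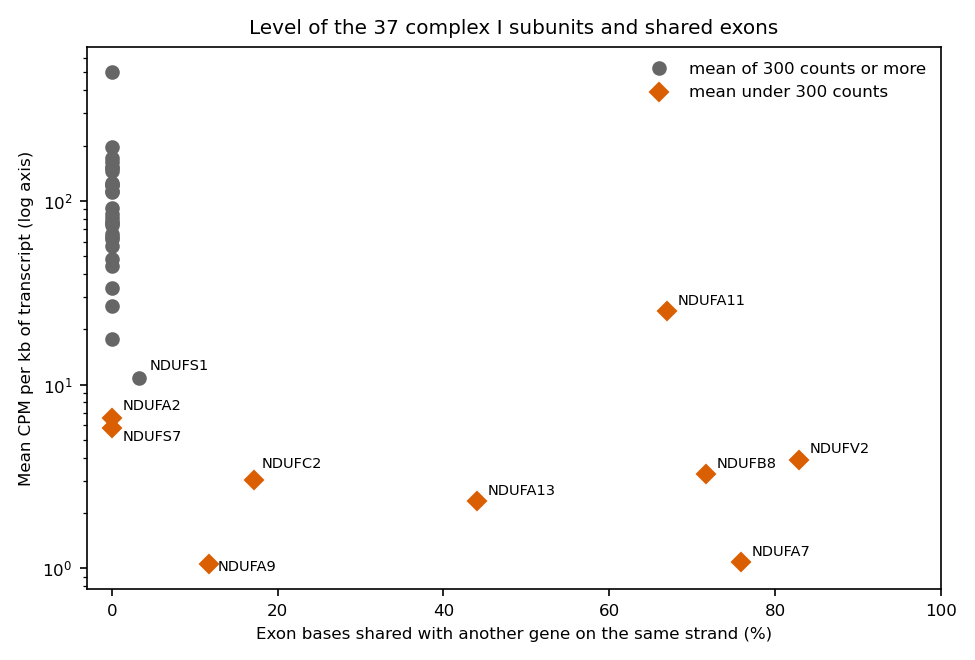
Mean level over the 6 libraries in CPM per kb of transcript (vertical log axis) of the 37 subunits against the percent of their exon bases shared with another gene on the same strand (horizontal axis). Diamonds are subunits with a mean under 300 reads; 7 of the 9 diamonds lie right of 0.

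The transcripts of the subunits are short. Their median length was 930 nt, against 3030 nt for the 12538 protein-coding genes tested, and their median GC content was 49.2%, against 49.4%. The 5 letters GGACT, a common form of the m6A consensus, were absent from 40.5% of subunit transcripts and from 9.02% of all protein-coding transcripts tested, and per kb their median was 0.720 and 0.938. Among the 10 genes called lower in shMETTL3 cells, 4 held no GGACT (NDUFA5, NDUFB6, NDUFS5 and NDUFS6). Across the 37 subunits, fold change and GGACT per kb had a Pearson r of 0.05 in shMETTL3 and -0.02 in shMETTL14 cells (Spearman rho 0.02 and -0.07). Fold change and GC content had r of 0.38 in both (rho 0.41 and 0.42), and both comparisons use the shCTR libraries. For shMETTL3 against shMETTL14, r with GC content was 0.07 (rho 0.05). The points of a comparison share 4 libraries, and these values describe genes, which are not independent replicates.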

How the data were processed

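Poly(A) RNA of K562 cells was sequenced in 6 libraries, 2 per group, grouped by the submitters' sample titles. The authors deposited whole-number counts of reads per gene, not normalized. Per the submitters' processing notes, HTSeq 0.6.1 and the build hg38 were used; the aligner, annotation release, counting mode and strand setting are not given in the sources used here. The table has 61661 rows, of which 986 are the authors' own unnamed genes with 0.635% to 0.703% of a library's reads, kept in the totals.

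The count analysis used edgeR 4.0.16 under R 4.3.3 (low-count filter filterByExpr with minimum count 10, TMM, quasi-likelihood test, all 6 libraries in 1 fit, Benjamini-Hochberg adjustment over 17686 genes, threshold 0.05). The steps were tested on simulated counts. Symbols, biotypes and exon overlap came from a gene name table and GENCODE release 29 (GRCh38); the transcript used per gene was coding, then ranked by APPRIS principal flag, support level and length. GC content and length were known for 94.2% of the genes tested. Replicates differed by more than sampling noise in each group (mean chi-square per gene 5.34 in shCTR, 3.05 in shMETTL3 and 2.55 in shMETTL14), so each library counted as 1 sample. Alternatives were DESeq2 1.42.0, DESeq2's size factors, library size alone, no filter, only the groups compared, the replicate number as a block, a GC and length trend per library (mgcv 1.9.3) with and without that block, and each library left out. Counting error is part of the model's spread; no other interval was computed.

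Genes were named by rule: members with an adjusted p under 0.05, the 7 nuclear core subunits, all NDUFAF genes, NDUFA4 and NDUFA4L2, METTL3 and METTL14, up to 3 called genes per direction of each context list, and the 5 highest and lowest members per kb. Of the core subunits, 1 is not reported here by name; it is in the counts, medians and sums. Other genes named (NDUFA6, NDUFB7, NDUFB8, NDUFC2 and the remaining proximal arm genes, the regulators NRF1, ESRRA, TFAM and PPARGC1A, pseudogenes and marker genes) were chosen after their values were seen. The members and lists were chosen with earlier results of these data known. Lists are described by counts and medians, with no test of a list. Protein sequences were not used here.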

Additional observations from a re-analysis of the deposited data

Results flagged for a closer look

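The shMETTL3 and shMETTL14 effects share the shCTR libraries, and their difference was tested directly as shMETTL3 minus shMETTL14 in the edgeR fit. It passed the threshold for 8 complex I subunits. NDUFA10 (-0.28), NDUFB10 (-0.25), NDUFA1 (-0.23), NDUFB11 (-0.22), NDUFA5 (-0.22) and NDUFS5 (-0.19) were lower in shMETTL3 cells on the log2 scale, and each of these 6 was also called lower in shMETTL3 against shCTR and not in shMETTL14 against shCTR. NDUFB1 (-0.26) was also lower in shMETTL3 than in shMETTL14 cells and was not called against shCTR in either knockdown. NDUFC1 (0.25) was higher in shMETTL3 cells, and it was the subunit called lower in shMETTL14 against shCTR. With 1 library left out NDUFA10 kept this difference in 1 of 4 fits and the other 7 genes in 0. DESeq2 gave 5 lower and 0 higher, and NDUFC1 lost the difference there and without the filter on low counts. With both libraries of each group the shMETTL3 values lay below the shMETTL14 values for the first 7 genes and above them for NDUFC1.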

How the results depend on the processing

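The count of complex I members called in shMETTL3 against shCTR was 10. It stayed between 7 and 12 in the 8 alternative fits with both libraries of each compared group. With the GC and length correction, with or without the replicate block, 11 were lower and 1 higher. Of these, 9 were among the 10. The subunit median was negative in each of the 8 fits. That median was -0.134, and it was -0.0787 with library size alone, -0.0873 with the GC and length correction and -0.0872 with that correction and the replicate block. Leaving out 1 library gave counts from 1 to 11 and medians from -0.182 to -0.120. Without shMETTL3 replicate 1 or shMETTL3 replicate 2 fewer members were called, and fewer of all genes tested were called lower too. In shMETTL14 against shCTR the count of 1 became 2 with the replicate block and 4 with the GC and length correction, with or without the block, where the genes gained included NDUFAB1 (lower) and NDUFA4 (higher). The median was -0.0335, -0.00778 with library size alone, -0.0529 with the correction and -0.0530 with the correction and the block. Leaving out 1 library gave counts from 0 to 2 and medians from -0.0896 to 0.00855, with the change of sign without shCTR replicate 2. In shMETTL3 against shMETTL14 the count of 8 became 4 with library size alone, 3 without the filter, 5 with DESeq2, 10 with the correction and the block and 11 with only the groups compared, and 0 to 1 with a library left out, and the median was -0.114, -0.0841 with library size alone and -0.117 to -0.0942 with a library left out. In that comparison library size alone gave 754 lower and 1399 higher calls over all genes, against 971 and 1177 with TMM. MT-ND3, not called at -0.04 in shMETTL3 against shCTR, was called at 0.13 with the GC and length correction and the replicate block. The cause of these shifts was not tested.

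Of the other values of single genes, 46 lost and 53 gained a call, with the direction kept, in fits with both libraries of each compared group. In these fits 1796 kept their side of the threshold. Directions of genes called in neither fit were not counted. With a library left out, 71 lost and 13 gained a call and 864 kept their side, and a group of 1 library was assumed to vary like the others. The titles give each group replicates 1 and 2. Deviations of libraries with the same number correlated at 0.0614 between shCTR and shMETTL3, 0.00511 between shCTR and shMETTL14 and -0.0200 between the knockdowns, so the numbers were not taken to pair samples. With the replicate block the 3 counts were 10, 2 and 9.

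With 2 libraries per group and 10 to 6412 reads per tested member, SEs ran from 0.0588 for NDUFV1 to 0.458 for NDUFA7 in shMETTL3 against shCTR. Changes of the subunits with few reads could not be detected at this depth.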
